A study of Mus musculus with 16 samples.

Results

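The matrix metalloproteinases (MMPs), the ADAM and ADAMTS proteases, the ADAMTS-like proteins and the tissue inhibitors of metalloproteinases (TIMPs) were followed in 2 fat depots of lean and obese mice, the subcutaneous (SAT) and the visceral (VAT) adipose tissue. Members were taken by symbol: every table entry whose RefSeq accession maps to an Mmp, Adam, Adamts, Adamtsl or Timp gene with a number after the family name. This gave 317 entries of 85 genes among the 130343 entries of the table, and 28 entries of 27 genes passed the filter on low counts and were tested. The tested entries were 11 of MMPs, 7 of ADAMs, 6 of ADAMTS proteases, 1 of an ADAMTS-like protein and 3 of TIMPs. All 16 libraries were used, from inguinal (hindlimb) SAT and mesenteric VAT of 8 wild-type male C57BL/6J mice. The 4 lean mice were kept on a normal laboratory diet, and the 4 obese mice were fed a high-fat diet with 42% of its energy from fat and 0.2% cholesterol. Both diets started at 10 weeks of age and lasted 12 to 14 months, and each mouse gave 1 library of each tissue. The tissues were whole depots, so a change of cell makeup and a change of RNA per cell cannot be told apart in any value below.

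MMPs are zinc-dependent endopeptidases that cut collagens, proteoglycans and other proteins of the extracellular matrix, and most are secreted as inactive precursors. ADAMs are membrane-bound relatives, some of which shed the outer part of cell surface proteins, and ADAMTS proteases are secreted enzymes that trim procollagens and cleave large proteoglycans such as versican and aggrecan. TIMPs bind the active site of these enzymes and block it. In adipose tissue the balance between them is known for its part in matrix remodelling as fat cells enlarge and macrophages enter the depot.

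Values are CPM, the share of a library's counts, scaled with trimmed mean of M values (TMM) factors, in the order of replicates 1 to 4. Obese mice were set against lean mice in SAT and in VAT by edgeR's quasi-likelihood F-test. A call means an adjusted p below 0.05, after Benjamini-Hochberg adjustment over the 13288 entries tested. Library totals ranged from 1256082 counts (VAT, lean replicate 1) to 16614407 (SAT, obese replicate 3), and 1 count equals 0.796 CPM in the shallowest of them before TMM scaling. The table counts each RefSeq transcript on its own. The 32 genes with 1 entry held 97.9% of the 703570 member counts, and Timp2 and Timp3 alone held 66.9%. A low count of a gene with several entries is therefore not read as low expression. That limit covers 2 members of interest: Timp1, an inducible inhibitor, had 3 entries with 1 to 15 counts per library, and Mmp2, the constitutive gelatinase, had 2 entries with 0 to 15 counts. Neither was tested, nor was Adamtsl4, which had 0 counts in all 16 libraries.

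Of the 58 genes not tested, 21 had no count in any library, 37 had at least 1 count, and 40 had several entries. Among 1-entry genes that missed the filter, Mmp8, the neutrophil collagenase, had 0 to 26 counts per library, 26 of them in VAT of obese replicate 4. Mmp10, a second stromelysin, had counts in 2 libraries only, 6 in VAT of lean replicate 2 and 10 in VAT of obese replicate 4. These values are too few for a comparison.

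In obese mice Timp3 was higher and Timp4 lower in both tissues, 5 MMP entries and Adam8 were higher in VAT, and 2 ADAMs and 2 ADAMTS proteases were higher in SAT. In SAT of obese mice 5 of 28 entries were higher than in lean mice (6.20% of all entries tested were) and 1 was lower (4.85% of all). In VAT 7 entries were higher (6.82% of all) and 1 was lower (4.09% of all). With a log2 fold change beyond 1.5 asked for in addition, 2 entries remained in SAT (2.75% of all) and 4 in VAT (3.17% of all). The median log2 fold change over the 28 entries was 0.26 in SAT and 0.38 in VAT, beside 0.01 and 0.02 over all entries tested. MMPs supplied 5 of the 7 increases in VAT. In SAT edgeR called 0 of the 11 MMP entries, with 1 at an unadjusted p below 0.05, DESeq2 called 1 and limma voom 0. Of the calls made in only 1 tissue, the difference between tissues passed its own edgeR test for Mmp13 and Adam12. With DESeq2 it passed for Adam12, Mmp3 (0.65, adjusted p = 0.046) and Adamts2 (-0.48, adjusted p = 0.0308), and Mmp13 was given no adjusted p. The counts and medians describe the entries that passed the filter, 2 of which (Mmp12 and Adam8) did so only through VAT of obese mice.

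**Figure D1:**
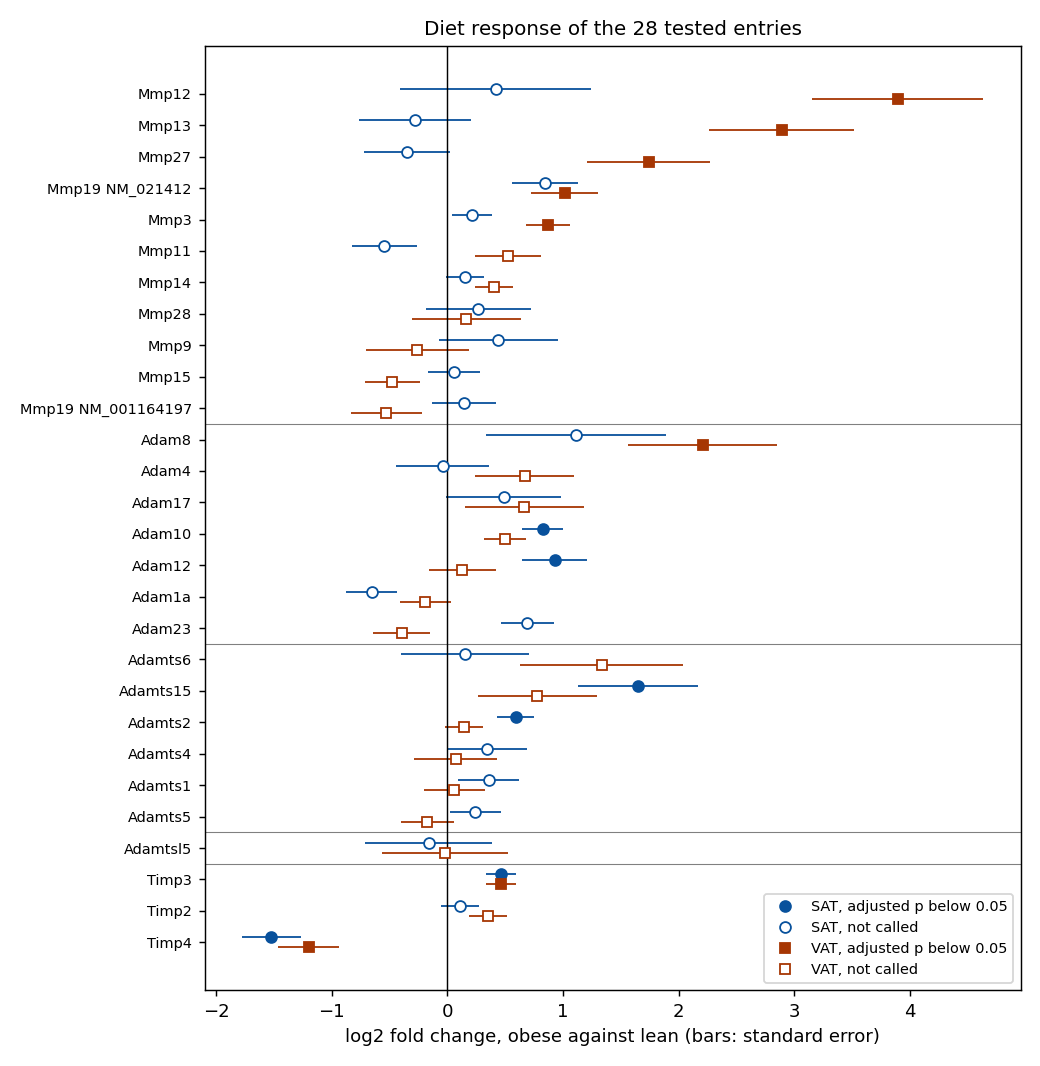
Log2 fold change of obese against lean mice (x axis, bars are standard errors) for the 28 tested entries, grouped from top to bottom as MMP, ADAM, ADAMTS, ADAMTS-like and TIMP, in SAT (circles) and VAT (squares). Filled symbols mark the 6 calls in SAT and the 8 in VAT, and the filled symbols furthest to the right are Mmp12 at 3.90 and Mmp13 at 2.89 in VAT.

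Of the MMPs that rose in VAT, 4 lie together on chromosome 9. In GRCm39, the build of the table, 10 MMP genes span 427 kb from 7272514 to 7699587 in the order Mmp13, Mmp12, Mmp1b, Mmp3, Mmp1a, Mmp10, Mmp8, Mmp27, Mmp20 and Mmp7. Mmp13, Mmp12, Mmp3 and Mmp27 were the 4 tested genes of this cluster, and each was called higher in VAT. The promoter windows of these 4 genes are shown, from 250 bases before to 50 bases after the annotated start, taken from RefSeq on GRCm38.p6 (plus strand). Capitals mark the letters TGAGTCA or their reverse complement TGACTCA, the binding motif of the transcription factor AP-1. The windows span chr9:7272264-7272563 (Mmp13), chr9:7344147-7344446 and chr9:7347124-7347423 (Mmp12, with 2 annotated starts), chr9:7445572-7445871 (Mmp3) and chr9:7571146-7571445 (Mmp27).
Mmp13: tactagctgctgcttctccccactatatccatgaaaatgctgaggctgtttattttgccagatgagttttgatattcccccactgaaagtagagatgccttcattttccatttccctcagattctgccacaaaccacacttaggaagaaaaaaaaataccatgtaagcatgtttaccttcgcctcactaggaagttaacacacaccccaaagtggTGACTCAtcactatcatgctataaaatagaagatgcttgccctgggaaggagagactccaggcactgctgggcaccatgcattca
Mmp12, first start: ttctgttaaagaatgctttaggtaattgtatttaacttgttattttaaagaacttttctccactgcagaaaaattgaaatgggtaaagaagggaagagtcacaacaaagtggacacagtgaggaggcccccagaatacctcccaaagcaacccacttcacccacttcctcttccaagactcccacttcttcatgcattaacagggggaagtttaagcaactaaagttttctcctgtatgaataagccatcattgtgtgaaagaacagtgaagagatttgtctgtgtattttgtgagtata
Mmp12, second start: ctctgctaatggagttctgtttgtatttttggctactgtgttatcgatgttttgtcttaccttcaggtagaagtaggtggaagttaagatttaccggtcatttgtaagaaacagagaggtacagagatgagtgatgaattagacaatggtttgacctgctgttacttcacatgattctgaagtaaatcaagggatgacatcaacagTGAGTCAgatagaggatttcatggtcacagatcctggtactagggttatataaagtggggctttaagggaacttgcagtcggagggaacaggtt
Mmp3: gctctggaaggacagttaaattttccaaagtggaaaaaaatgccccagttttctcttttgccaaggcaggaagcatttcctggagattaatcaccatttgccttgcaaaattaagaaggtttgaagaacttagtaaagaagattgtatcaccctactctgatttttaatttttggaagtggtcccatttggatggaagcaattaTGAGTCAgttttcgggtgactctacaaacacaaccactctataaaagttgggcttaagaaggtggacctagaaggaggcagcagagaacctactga
Mmp27: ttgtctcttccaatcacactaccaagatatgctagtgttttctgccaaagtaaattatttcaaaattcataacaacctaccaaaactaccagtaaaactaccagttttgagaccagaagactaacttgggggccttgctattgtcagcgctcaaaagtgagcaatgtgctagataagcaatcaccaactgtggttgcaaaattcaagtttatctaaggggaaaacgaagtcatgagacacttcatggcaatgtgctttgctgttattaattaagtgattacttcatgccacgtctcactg
The motif began 35 bases before the start in Mmp13, 44 before the second start of Mmp12 and 46 before that of Mmp3. It was not in the windows of Mmp27 or of the first Mmp12 start. Among the 10 cluster genes 7 held it in a window (7 of 12 windows), against 5.20% of all 32851 windows, on either strand. Over the 54 members with a window it was in 10 of 59 windows, which include the cluster windows. Mmp1b, Mmp1a, Mmp10 and Mmp7 among the 7 were not tested, with 0 to 16 counts each over all libraries. A match is a description of these letters and says nothing about binding. Its part in the rise in VAT was not tested.

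Mmp13 is a collagenase, which cuts fibrillar collagen. In VAT it was at 0.641, 0.239, 0.107 and 0.773 CPM in lean mice and at 2.68, 1.32, 0.958 and 6.17 CPM in obese mice. All obese libraries lay above all lean ones, with replicate 4 highest in both diets. The log2 fold change was 2.89 ± 0.63 (SE, adjusted p = 0.00358). Without obese replicate 4 it was 1.91 with an adjusted p of 0.062. In SAT the lean libraries ranged from 1.43 to 2.81 CPM and the obese from 0.953 to 2.14 CPM, and the log2 fold change was -0.28 ± 0.49 (adjusted p = 0.781). The response in VAT minus that in SAT, tested with the mouse as a block, was 2.85 ± 0.73 (adjusted p = 0.0397). It did not pass without lean replicate 2 (2.60, 0.139) or 3 (2.59, 0.118), nor without obese replicate 1 (2.76, 0.0697), 2 (2.87, 0.0608) or 4 (2.30, 0.206), nor without the block (3.17, 0.056). All of these values rest on few counts, from 1 to 7 in the VAT libraries of lean mice and 7 to 72 in those of obese mice.

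Mmp12 encodes macrophage elastase, which cuts elastin and is made mainly by macrophages. Its tested entry (NM_001320076) was at 0, 0.179, 0.107 and 0.331 CPM in VAT of lean mice, 7 counts in all, and at 4.22, 2.06, 0.958 and 5.22 CPM in VAT of obese mice, 107 counts in all. The measured groups did not overlap, and the log2 fold change was 3.90 ± 0.74 (adjusted p = 0.00114). In lean replicate 1, the shallowest library, a count of 0 allows up to 2.39 CPM before TMM scaling, which is above obese replicate 3. The entry passed the filter only through VAT of obese mice, the group where it was high, so its place among the tested entries is not independent of the difference. With no filter the value was 3.83 (adjusted p = 2.3e-07). The fitted fold of so few lean counts depends on the model's prior count. The entry fell below the filter without obese replicate 1, 2 or 4, and it was called in the other 13 fits. In SAT no library of either diet went over 0.530 CPM (log2 fold change 0.42 ± 0.82, adjusted p = 0.810). The difference between tissues was 2.99 ± 1.37 and did not pass (adjusted p = 0.309), so the Mmp12 responses in VAT and SAT are not shown to differ.

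Mmp3 encodes stromelysin-1, which has a broad range of matrix substrates and activates other MMP precursors. It was the most abundant cluster gene by CPM per kilobase of transcript, at 59.0 ± 12.6 (SD, n = 4) in SAT and 10.9 ± 1.85 in VAT of lean mice. In VAT its CPM was 15.4, 19.2, 23.5 and 20.1 in lean mice and 38.3, 32.8, 26.5 and 49.7 in obese mice. Every obese library exceeded every lean one, and the log2 fold change of 0.87 ± 0.19 (adjusted p = 0.00354) passed in all 16 fits. In SAT it was at 89.0, 97.0, 99.4 and 139 CPM in lean mice and 144, 100.1, 115 and 130.3 CPM in obese mice, and these groups overlapped (log2 fold change 0.21 ± 0.17, adjusted p = 0.493). Mmp3 in VAT of obese mice was still below its level in SAT of either diet. The difference of the diet response, 0.67 ± 0.20, did not pass with edgeR (adjusted p = 0.083) and passed with DESeq2 (0.65, adjusted p = 0.046).

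Mmp27, whose substrates are less well known, was at 0, 0.897, 0.536 and 0.221 CPM in VAT of lean mice and 2.68, 2.23, 0.575 and 2.57 CPM in VAT of obese mice. The groups overlapped through obese replicate 3. The log2 fold change of 1.74 ± 0.53 (adjusted p = 0.0358) was the least stable VAT call: it missed the threshold in 9 of 16 fits, among them limma voom (1.59, 0.137), legacy=FALSE (1.66, 0.0516), the VAT libraries alone (1.76, 0.0785) and those without lean replicate 1, 3 or 4 or obese replicate 1, 2 or 4. In SAT the log2 fold change was -0.35 ± 0.37 (adjusted p = 0.618).

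Outside chromosome 9, Mmp19 has 2 tested entries that did not move together. NM_021412 was at 3.84, 4.25, 3.97 and 6.74 CPM in VAT of lean mice and 7.28, 9.24, 5.27 and 16.3 CPM in VAT of obese mice (log2 fold change 1.01 ± 0.29, adjusted p = 0.0238). In SAT its groups did not overlap (3.38 to 5.10 against 6.99 to 8.79 CPM), yet the adjusted p was 0.0573 (log2 0.84 ± 0.28). NM_001164197 had a log2 fold change of -0.53 ± 0.31 in VAT (adjusted p = 0.321). With both entries summed, the VAT value for Mmp19 was 0.50 and did not pass (adjusted p = 0.221). The NM_021412 call in VAT was also lost without lean replicate 2 (0.93, 0.0906) or 3 (0.92, 0.0966), or obese replicate 2 (1.04, 0.051) or 4 (0.59, 0.217), and with the VAT libraries alone (0.99, 0.077). The SAT value passed with DESeq2 (0.85, 0.0467), with no filter (0.87, 0.0362) and with SAT libraries alone (0.83, 0.0164). Exons of Mmp19 overlap those of Tmem198b on the opposite strand, and the strand setting of the counting is not given in the sources used here.

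**Figure D2:**
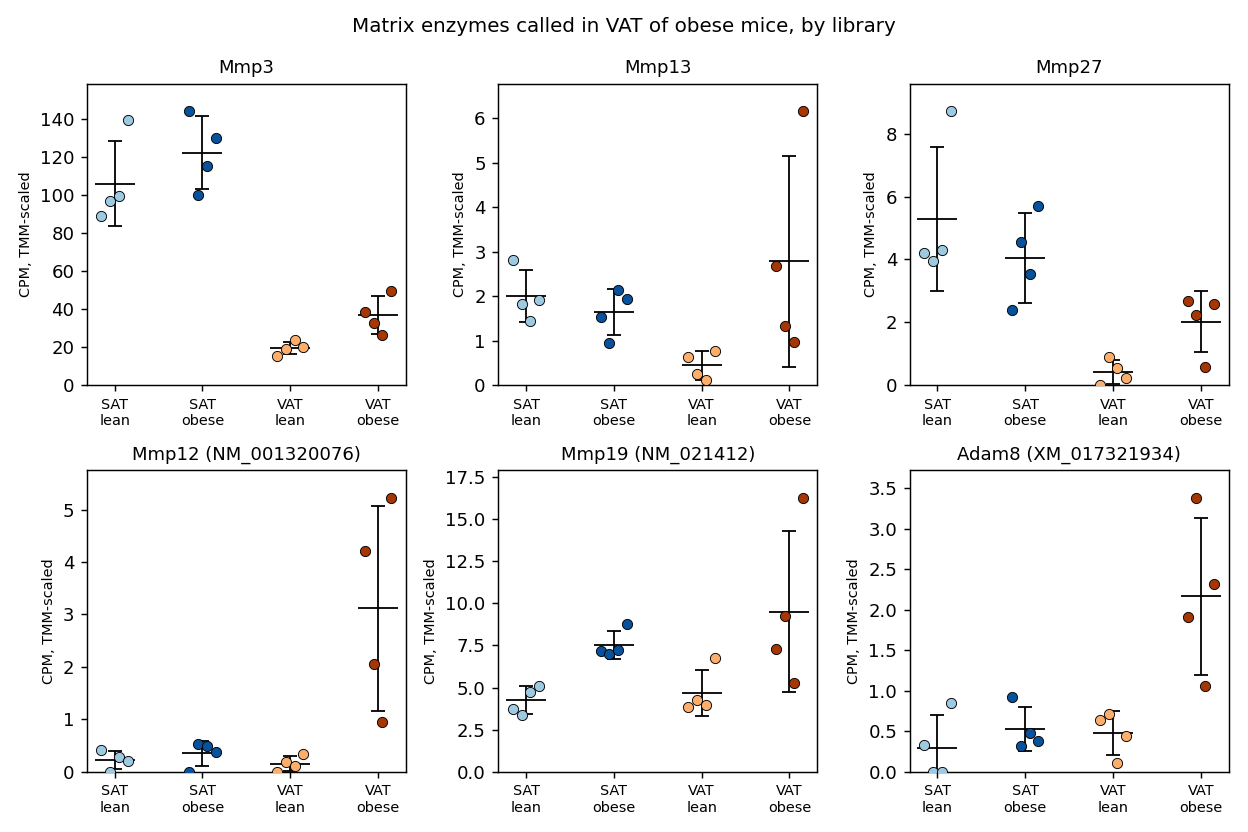
TMM-scaled CPM (y axis, from 0) of the 6 enzyme entries called in VAT, by library (points, 4 mice per group in replicate order), with the group mean and SD (bars). For Mmp12, Mmp13, Mmp3 and Adam8 every VAT library of obese mice lies above every VAT library of lean mice, and the SAT libraries of Mmp3 lie between 89.0 and 144 CPM.

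The other MMPs were not called by diet in either tissue. Mmp14, the membrane-type enzyme that activates the Mmp2 precursor, was the most abundant MMP per kilobase among genes with 1 entry, at 106 ± 25.8 (SAT, lean), 118 ± 4.61 (SAT, obese), 100.4 ± 15.9 (VAT, lean) and 133 ± 32.5 CPM per kb (VAT, obese). Its log2 fold change was 0.15 ± 0.16 in SAT (adjusted p = 0.620) and 0.40 ± 0.16 in VAT (adjusted p = 0.126). Mmp9, the inducible gelatinase of neutrophils and macrophages, had 3 to 28 counts per library, with log2 fold changes of 0.44 ± 0.51 in SAT (adjusted p = 0.651) and -0.26 ± 0.44 in VAT (adjusted p = 0.789). Mmp11, a stromelysin known from stromal cells, had log2 fold changes of -0.54 ± 0.28 in SAT (adjusted p = 0.241) and 0.53 ± 0.28 in VAT (adjusted p = 0.276). Neither passed alone, but the difference between them did, at 1.16 ± 0.29 (adjusted p = 0.0374). That difference did not pass without lean replicate 2 (1.02, 0.136), or obese replicate 2 (1.09, 0.0803), 3 (1.23, 0.0599) or 4 (1.07, 0.147), nor without the block (1.07, 0.220). Mmp15 had log2 fold changes of 0.06 ± 0.23 in SAT (adjusted p = 0.913) and -0.47 ± 0.23 in VAT (adjusted p = 0.223). Its VAT groups did not overlap, at 45.4 to 80.1 CPM in lean and 34.0 to 45.0 CPM in obese mice. Mmp28 had 0.27 ± 0.45 in SAT (adjusted p = 0.770) and 0.16 ± 0.47 in VAT (adjusted p = 0.887).

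Among ADAMs, Adam10 and Adam12 rose in SAT. Adam10 encodes the main sheddase of Notch receptors and of several adhesion molecules, and its entry NM_007399 was at 12.6, 15.8, 11.3 and 9.15 CPM in lean SAT and 21.5, 20.4, 24.1 and 20.7 CPM in obese SAT. The groups were well apart, and the log2 fold change of 0.82 ± 0.17 (adjusted p = 0.00353) passed in all 16 fits. In VAT the groups did not overlap either, at 13.6 to 15.9 against 16.5 to 28.7 CPM, but the test did not pass (log2 0.50 ± 0.18, adjusted p = 0.0792). The difference between tissues, -0.35 ± 0.24, did not pass (adjusted p = 0.560).

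Adam12, a protease of mesenchymal and adipocyte progenitor cells, was at 55.2, 38.4, 88.5 and 125 CPM in lean SAT and 167, 183, 112 and 121 CPM in obese SAT. The groups overlapped through lean replicate 4 (log2 fold change 0.93 ± 0.28, adjusted p = 0.0360). The call was lost when any one of 6 mice was left out: lean replicate 1 (0.79, 0.110), 2 (0.70, 0.094) or 3 (1.01, 0.0554) or obese replicate 1 (0.85, 0.101), 2 (0.80, 0.114) or 4 (1.01, 0.0504). In VAT it was at 37.9 to 83.2 CPM in lean and 43.5 to 78.1 CPM in obese mice (log2 0.13 ± 0.29, adjusted p = 0.840). The response differed between tissues, by -0.84 ± 0.18 (adjusted p = 0.0115), a call lost only without lean replicate 2 among the fits that left out a mouse (-0.75, 0.0558), and also without the block (-0.80, 0.391).

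Adam8, a protease of myeloid cells, rose in VAT. Its entry XM_017321934 was at 0.641, 0.718, 0.107 and 0.442 CPM in VAT of lean mice, whereas in obese mice it was at 1.92, 3.38, 1.05 and 2.31 CPM. The groups did not overlap (log2 fold change 2.21 ± 0.64, adjusted p = 0.0274), on 18 and 84 counts in all. This entry, like that of Mmp12, passed the filter only through VAT of obese mice, and with no filter its value was 2.15 (adjusted p = 0.00617). The call was lost without lean replicate 3 (1.85, 0.0748) or 4 (2.15, 0.0594) or obese replicate 2 (1.87, 0.125) or 4 (2.18, 0.0809). In SAT its libraries held 0 to 12 counts (log2 1.11 ± 0.78, adjusted p = 0.406).

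Adam17, the sheddase of tumor necrosis factor, could be followed only through a noncoding transcript (NR_120376) with 0 to 16 counts per library, with log2 fold changes of 0.49 ± 0.50 in SAT (adjusted p = 0.591) and 0.67 ± 0.52 in VAT (adjusted p = 0.486). Its exons overlap those of Iah1 on the other strand. Adam1a, known from sperm, and Adam23 and Adam4, which lack the zinc-binding motif in the translated canonical transcript, were not called by diet with edgeR as used here. Adam23 in SAT was at 4.57 to 7.23 CPM in lean and 8.37 to 10.3 CPM in obese mice, and its groups did not overlap (log2 0.69 ± 0.23, adjusted p = 0.0520). It was called in SAT by DESeq2 (0.70, 0.0355), by limma voom (0.72, 0.0333) and by edgeR with legacy=FALSE (0.70, 0.027), RLE size factors (0.70, 0.0494) or SAT libraries alone (0.68, 0.0377). Adam1a in SAT (log2 -0.66 ± 0.22, adjusted p = 0.0569) was called lower by DESeq2 (-0.66, 0.04), with legacy=FALSE (-0.67, 0.0362) and with entries summed per symbol (-0.67, 0.0493).

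Among ADAMTS proteases, Adamts2 and Adamts15 rose in SAT. Adamts2 removes the amino-terminal propeptide of fibrillar procollagens. It was at 348, 259, 243 and 418 CPM in lean SAT and 556, 512, 429 and 411 CPM in obese SAT. Obese replicate 4 lay just below lean replicate 4, and the log2 fold change was 0.59 ± 0.16 (adjusted p = 0.0202). The call was lost without lean replicate 2 (0.50, 0.0934) or 3 (0.48, 0.0579) or obese replicate 1 (0.50, 0.0737) or 2 (0.56, 0.0659). In VAT the log2 fold change of Adamts2 was 0.14 ± 0.16 (adjusted p = 0.658). The difference between tissues, -0.46 ± 0.15, did not pass with edgeR (adjusted p = 0.109).

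Adamts15, a proteoglycanase, was at 0.743, 1.69, 0.477 and 1.28 CPM in lean SAT and 2.92, 5.30, 2.69 and 1.62 CPM in obese SAT. Obese replicate 4 fell within the lean range (log2 1.65 ± 0.52, adjusted p = 0.0436). This call was lost without lean replicate 1 (1.5, 0.102), 3 (1.38, 0.150) or 4 (1.74, 0.0645) or obese replicate 2 (1.30, 0.135) or 3 (1.71, 0.075). In VAT the log2 fold change of Adamts15 was 0.78 ± 0.515 (adjusted p = 0.3945). The difference between tissues, -0.799 ± 0.705, did not pass (adjusted p = 0.662). In VAT edgeR called 0 of the 6 ADAMTS entries, with 0 at an unadjusted p below 0.05, and DESeq2 and limma voom called 0 as well.

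Adamts1, Adamts4 and Adamts5, which also cleave proteoglycans, were not called by diet. Adamts1 had log2 fold changes of 0.36 ± 0.26 in SAT (adjusted p = 0.426) and 0.06 ± 0.26 in VAT (adjusted p = 0.929). Adamts5, the main aggrecanase in mouse cartilage, had 0.24 ± 0.22 (adjusted p = 0.545) and -0.17 ± 0.23 (adjusted p = 0.713). Adamts4, another aggrecanase, had 0.35 ± 0.34 (adjusted p = 0.579) and 0.07 ± 0.36 (adjusted p = 0.939). The ADAMTS-like entry, Adamtsl5, had 1 to 18 counts per library and log2 fold changes of -0.16 ± 0.55 in SAT (adjusted p = 0.902) and -0.02 ± 0.55 in VAT (adjusted p = 0.991).

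Of the 3 tested inhibitors, Timp3 rose and Timp4 fell in both tissues, and Timp2 was not called. Timp3, a matrix-bound inhibitor that also blocks Adam10 and Adam17, was higher in obese mice in both tissues. In SAT it was at 1265, 1135, 1378 and 1199 CPM in lean mice and 1552, 1425, 2113 and 1784 CPM in obese mice. In VAT it was at 1129, 1403, 1670 and 1346 CPM in lean mice and 1731, 1802, 2131 and 1991 CPM in obese mice. Lean and obese libraries did not overlap in either tissue, and the log2 fold changes were 0.47 ± 0.13 in SAT (adjusted p = 0.0238) and 0.46 ± 0.13 in VAT (adjusted p = 0.0233).

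The SAT call of Timp3 was lost without lean replicate 2 (0.42, 0.094) or 4 (0.44, 0.0596) or obese replicate 3 (0.35, 0.120) or 4 (0.45, 0.0581), and the VAT call without lean replicate 1 (0.35, 0.0886), 2 (0.47, 0.0575) or 4 (0.40, 0.0899) or obese replicate 3 (0.41, 0.059) or 4 (0.44, 0.0719), or with no filter on low counts (0.42, 0.0556). The log2 fold change stayed between 0.35 and 0.56 in all fits of either tissue. Timp3 lies within Syn3, and its exons overlap those of Syn3 on the other strand.

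Timp4, an inhibitor with high expression in adipocytes, fell in both tissues. Its entry NM_080639 was at 37.3, 35.6, 50.5 and 24.0 CPM in lean SAT and 12.9, 10.9, 12.6 and 15.2 CPM in obese SAT. In VAT it was at 21.1, 19.98, 36.1 and 48.3 CPM in lean mice and 11.5, 13.0, 10.5 and 19.9 CPM in obese mice. No obese library reached the lowest lean one in either tissue. The log2 fold changes were -1.52 ± 0.26 in SAT (adjusted p = 0.000417) and -1.20 ± 0.26 in VAT (adjusted p = 0.00396), and both passed in all 16 fits. The responses differed by 0.35 ± 0.32 (adjusted p = 0.677). Exons of Timp4 overlap those of Syn2 on the other strand.

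Timp2, which inhibits MMPs and takes part in activation of Mmp2 at the cell surface, was not called by diet. It was at 899, 1044, 809 and 1418 CPM in lean SAT and 1049, 914, 1233 and 1293 CPM in obese SAT, and the log2 fold change was 0.11 ± 0.17 (adjusted p = 0.746). In VAT the value was 0.35 ± 0.17 (adjusted p = 0.194). For the difference between the tissues' responses edgeR called 0 of the 3 TIMP entries, with 0 at an unadjusted p below 0.05, and DESeq2 called 0.

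**Figure D3:**
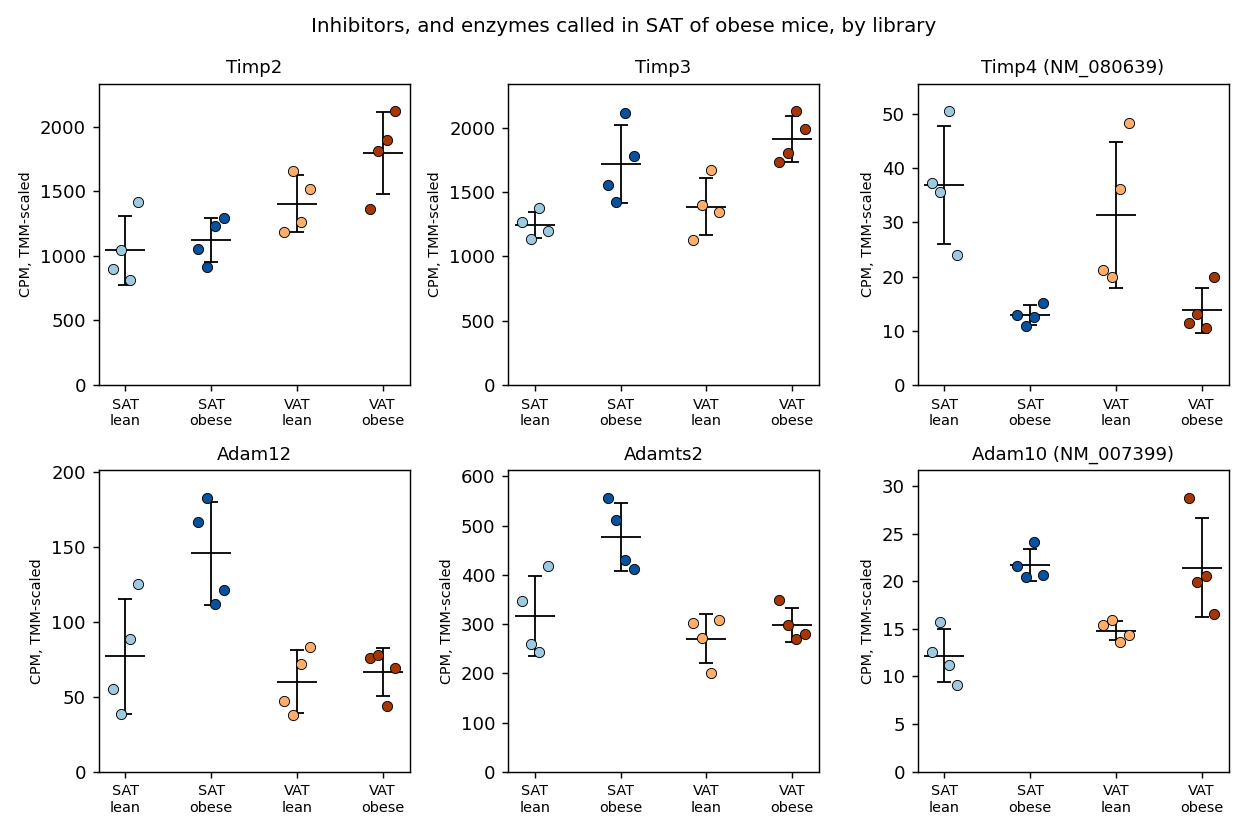
TMM-scaled CPM (y axis, from 0) of the 3 tested inhibitors and of Adam12, Adamts2 and Adam10, by library (points, 4 mice per group in replicate order), with the group mean and SD (bars). Timp4 drops from 24.0 to 50.5 CPM in lean SAT to 10.9 to 15.2 CPM in obese SAT, and Timp3 is higher in obese mice of both tissues.

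Levels of different genes were compared per kilobase of the canonical GENCODE transcript, over the 14 tested genes with 1 entry. Timp3 (264 ± 21.99 in lean SAT to 405 ± 38.5 CPM per kb in obese VAT) and Timp2 (278 ± 71.6 in lean SAT to 479 ± 84.8 in obese VAT) were the most abundant members in all 4 groups. Mmp14 came next, followed by Mmp3, Adamts1 and Adamts2 in SAT and by Adamts1 and Adamts2 in VAT. In lean SAT Timp2 and Timp3 did not differ beyond their spread, nor did Mmp3, Adamts1 (52.6 ± 17.3) and Adamts2 (43.1 ± 11.1). Nor did Mmp3 (68.0 ± 10.6), Adamts1 (67.5 ± 11.7) and Adamts2 (64.85 ± 9.33) in obese SAT. In VAT Adamts1 and Adamts2 were also within their spread, at 39.6 ± 21.3 and 36.8 ± 6.75 in lean mice. In obese mice they were at 41.3 ± 8.32 and 40.6 ± 4.73.

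Summed over tested genes with 1 entry, the 2 inhibitors outweighed the 5 MMPs in every library. The ratio of their CPM per kb was 2.94, 3.51, 3.32 and 2.71 in lean SAT, 2.94, 2.95, 3.93 and 3.64 in obese SAT, 5.19, 6.43, 5.45 and 4.82 in lean VAT, and 5.63, 5.59, 6.20 and 4.59 in obese VAT. The means were 3.12 ± 0.36 and 3.36 ± 0.50 in SAT and 5.47 ± 0.69 and 5.50 ± 0.67 in VAT (SD, n = 4), so the diets overlapped while every VAT library lay above every SAT library. Mmp3, at 68.0 ± 10.6 CPM per kb in obese SAT against 20.4 ± 5.47 in obese VAT, entered the MMP sum with Mmp14, whose levels overlapped between depots. The inhibitor sum was also higher in VAT, at 668 ± 79.0 against 542 ± 60.6 CPM per kb in lean and 884 ± 116 against 663 ± 105 in obese mice, while the MMP sum was 123 ± 15.8 against 177 ± 39.3 and 163 ± 36.4 against 197 ± 9.29. The sums leave out every gene with several entries, among them Timp1, Timp4 and Mmp2 and the tested Mmp9, Mmp11, Mmp12, Mmp19 and Mmp28.

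**Figure D4:**
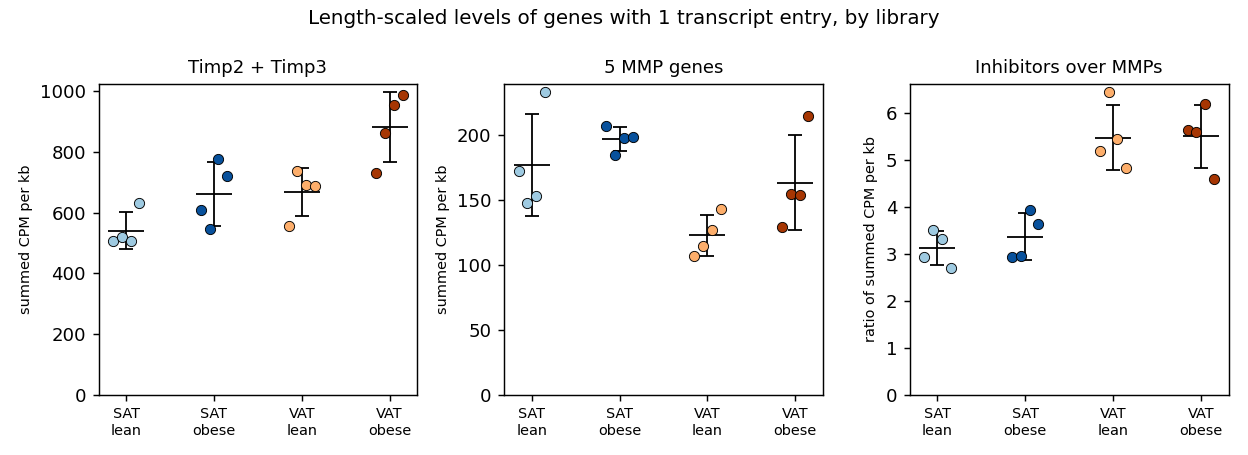
Summed CPM per kb of Timp2 and Timp3 (left), of the 5 tested MMP genes with 1 entry (middle), and their ratio (right), by library (points, 4 mice per group in replicate order) with the group mean and SD (bars). The ratio is between 2.71 and 3.93 in SAT and between 4.59 and 6.43 in VAT.

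VAT was compared with SAT of the same mouse, with the mouse as a block. In lean mice 3 of 28 entries were higher in VAT (8.0% of all entries tested were) and 6 were lower (6.84% of all). Mmp9 among the 3 had passed the filter only with its VAT libraries, and Adamts6 among the 6 only through SAT libraries. In obese mice 5 were higher (15.9% of all) and 8 were lower (13.5% of all), and Mmp12 and Adam8 among the 5 had passed the filter only through VAT of obese mice. The lower entries included 3 of the 6 ADAMTS entries in each diet, Adamts1 and Adamts5 in both, with Adamts6 in lean and Adamts2 in obese mice. Adamts19, which missed the filter, went the other way: its 7 entries summed to 56 counts in VAT and 0 in SAT of lean mice, and to 23 and 4 in obese mice. With no filter its noncoding entry XR_003952520 was called higher in VAT of both diets (adjusted p = 2.63e-05 and 0.00807). An entry of Mmp25, which also missed the filter, was called higher in VAT of obese mice with no filter (2.57, adjusted p = 0.0189).

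Of the 4 tested chromosome 9 MMPs, 3 were lower in lean VAT than in lean SAT. Mmp27 differed by log2 -3.22 ± 0.48 (adjusted p = 4.01e-05), Mmp3 by -2.42 ± 0.15 (adjusted p = 7.02e-11) and Mmp13 by -2.33 ± 0.58 (adjusted p = 0.00688), each lower in VAT of 4 of 4 mice. The Mmp13 call was lost without lean replicate 2 (-2.07, 0.0589). Mmp12 had a value of -0.08 ± 1.15 (adjusted p = 0.976), with VAT above SAT in 2 of 4 lean mice. In obese mice Mmp3 was lower in VAT by -1.75 ± 0.14 (adjusted p = 3.14e-09, 4 of 4 mice) and Mmp27 by -1.18 ± 0.39 (adjusted p = 0.0262), in all but replicate 1. The Mmp27 call was lost without obese replicate 2 (-1.25, 0.0661), 3 (-0.82, 0.180) or 4 (-1.20, 0.107), and without the block (-1.06, 0.0558). Mmp13 no longer differed by the test (0.52 ± 0.43, adjusted p = 0.397). Mmp11 was higher in obese VAT (1.06 ± 0.20, adjusted p = 0.000328), as was Mmp12 (2.91 ± 0.67, adjusted p = 0.00212), both in 4 of 4 mice. Mmp12 passed the filter only through this group, and with no filter its value was 2.84 (adjusted p = 6.12e-06).

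**Figure D5:**
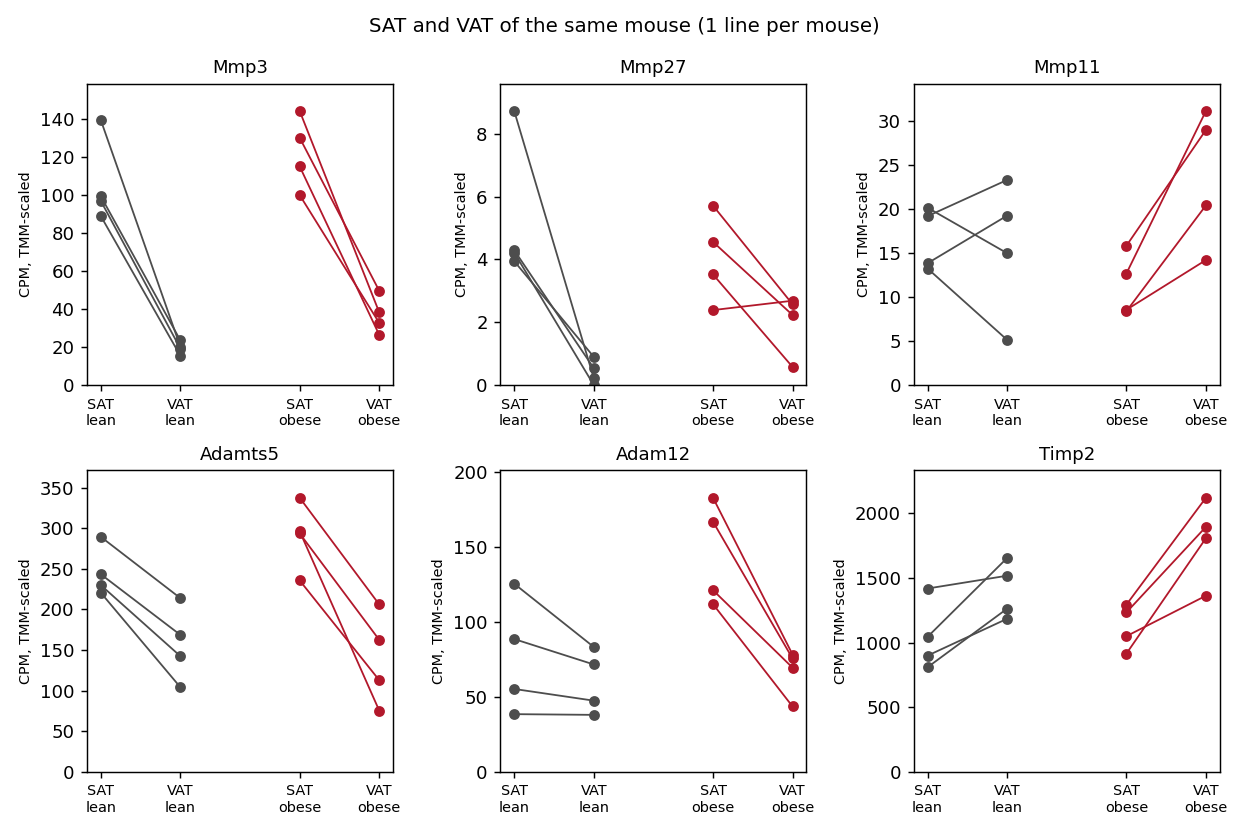
TMM-scaled CPM (y axis, from 0) of 6 members in SAT and VAT, with 1 line joining the 2 libraries of each mouse (grey for lean, red for obese). Lines for Mmp3 and Adamts5 fall from SAT to VAT in all 8 mice, lines for Timp2 rise in all 8, and the lines for Adam12 fall more steeply in obese mice than in lean mice.

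Adamts5 was lower in VAT of all 8 mice, by log2 -0.69 ± 0.15 in lean mice (adjusted p = 0.00301) and -1.15 ± 0.15 in obese mice (adjusted p = 6.30e-06). The lean call was lost without the block (-0.66, 0.0549). Adamts1 differed by -0.46 ± 0.15 (adjusted p = 0.0448, lost without lean replicate 1 (-0.25, 0.307), 2 or 4 or obese replicate 3, or with legacy=FALSE at 0.0564, or without the block at 0.355) and -0.71 ± 0.15 (adjusted p = 0.000967). Adamts6, through a noncoding transcript with 0 to 26 counts per library, was lower in lean VAT (-2.14 ± 0.69, adjusted p = 0.0381), a call lost without lean replicate 2 (-1.90, 0.244) or 3 (-1.80, 0.204) or obese replicate 2 or 3, with DESeq2 (-2.03, 0.0653), with no filter (-2.12, 0.0553) and without the block (-1.77, 0.0956). It passed the filter only through SAT libraries. In obese mice Adam12 (-1.13 ± 0.12, adjusted p = 3.24e-07), Adamts2 (-0.67 ± 0.10, adjusted p = 3.09e-05), Adam23 (-1.18 ± 0.26, adjusted p = 0.00124) and Mmp19 NM_001164197 (-0.90 ± 0.29, adjusted p = 0.0199) were lower in VAT as well, each in 4 of 4 mice. The Mmp19 call was lost with its entries summed (-0.10, 0.746) and without obese replicate 1 or 4.

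Among the inhibitors Timp2 was called between depots. It was higher in VAT of all 8 mice, by log2 0.45 ± 0.11 in lean mice (adjusted p = 0.00772) and 0.67 ± 0.11 in obese mice (adjusted p = 8.62e-05), and the lean call was lost without lean replicate 2 (0.38, 0.0695) or 3 (0.39, 0.0829), or without the block (0.43, 0.0898). Timp4 was not called between depots in the fit with all mice (-0.27 in lean mice), and it was called lower in lean VAT without lean replicate 4 (-0.68, 0.0137). Mmp9 was higher in lean VAT (1.89 ± 0.52, adjusted p = 0.0150, 3 of 4 mice), a call lost without lean replicate 1 (1.41, 0.113) or 3 (1.55, 0.116). It passed the filter only with its VAT libraries, the tissue where it was high. In obese mice Mmp9 was not called (1.02 ± 0.47, adjusted p = 0.107), but it was with legacy=FALSE (1.05, 0.0468). Mmp15, a membrane-type enzyme, was higher in lean VAT (0.47 ± 0.14, adjusted p = 0.0292, 4 of 4 mice), a call lost without lean replicate 1, 2 or 3, with no filter (0.46, 0.099) or without the block (0.41, 0.275). In obese mice Adam8 (2.00 ± 0.59, adjusted p = 0.0131) and Adam1a (0.73 ± 0.23, adjusted p = 0.0200) were higher in VAT in 4 of 4 mice. Adam8 passed the filter only through VAT of obese mice, and with no filter its value was 1.92 (adjusted p = 0.00442). Both calls were lost without obese replicate 2 or 4, and Adam1a also without obese replicate 3 or with no filter (0.65, 0.113).

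The test of the difference of the diet response called 3 of 28 members (2.17% of all entries were called). These were Mmp13, which rose in VAT, Mmp11, whose log2 values were -0.54 in SAT and 0.53 in VAT, and Adam12, which rose in SAT.

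Markers of several cell types were followed in the same libraries. Macrophage markers rose in both tissues in 5 of 5 tested entries, and the summed CPM of the 7 marker genes went from 1289 to 1765 in lean SAT to 2025 to 2973 in obese SAT, and from 2213 to 2916 in lean VAT to 4604 to 7000 in obese VAT. Markers of lipid-associated macrophages rose in 4 of 10 entries in SAT (287 to 384 CPM in obese against 156 to 219 in lean mice) and in 8 of 10 in VAT (554 to 1895 against 165 to 230.0 CPM). Mast cell markers rose in 3 of 4 entries in VAT, B cell markers in 2 of 4 and T cell markers in 2 of 3. Of the neutrophil list 1 entry was tested, S100a8, which was higher in VAT of obese mice (log2 1.07 ± 0.32, adjusted p = 0.0321), while Ly6g had 0 counts. Their part in the rise of Mmp12, Mmp13, Adam8 and the other enzymes was not tested.

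Adipocyte markers marked both tissues as fat, with summed levels of 15250 to 57820 CPM over 7 genes. They were lower in VAT than in SAT in 3 of 14 entries in lean and 12 of 14 in obese mice. They fell in 6 of 14 entries in VAT of obese mice, and edgeR called 0 of 14 in SAT (1 at an unadjusted p below 0.05, DESeq2 and limma voom 0). Timp4 fell in both tissues, and the part of adipocyte content in this was not tested. Fibroblast and progenitor markers, at 4001 to 7594 CPM in all groups, were not called by diet in 9 entries with edgeR in either tissue (0 at an unadjusted p below 0.05 in SAT and 1 in VAT, DESeq2 0 in both, limma voom 0 and 1). Mesothelial markers were at 0.165 to 1.41 CPM in SAT and 250.1 to 609 CPM in VAT and were higher in VAT in 7 of 7 entries of both diets, and their part in the depot differences was not tested. Between depots, macrophage markers were also higher in VAT in 3 of 5 entries in lean and 5 of 5 in obese mice, lipid-associated macrophage markers in 0 and 7 of 10, B cell markers in 3 and 4 of 4, and T cell markers in 1 and 3 of 3. Mast cell markers were lower in VAT in 3 of 4 entries in lean and 0 of 4 in obese mice, and S100a8 was lower in both (-2.30 ± 0.24 and -1.47 ± 0.21). Fibroblast and progenitor markers were higher in VAT in 3 of 9 entries and lower in 2 of 9 in each diet, Dcn and Dpp4 being higher and Col1a1 (-0.88 ± 0.14 in lean and -0.51 ± 0.14 in obese mice) and Pi16 (-1.34 ± 0.20 and -0.96 ± 0.19) lower. Intestinal epithelium markers were higher in VAT in 2 of 5 entries in lean mice (Slc5a1 and Zg16) and in 0 in obese mice. Exocrine pancreas markers were higher in 2 of 3 in lean (Pnlip and Cpa1) and 1 of 3 in obese mice. Cela1 was lower in both. Endothelial markers were higher in 1 of 5 in lean and lower in 1 of 5 in obese mice. Smooth muscle and pericyte markers were lower in 1 of 4 in lean mice. In obese mice 2 of 4 were lower and 1 higher. The part of these cells in the depot differences of Mmp12, Adam8, Mmp3, Adamts5 and Adam12 was not tested. Endothelial markers rose in 1 of 5 entries and smooth muscle and pericyte markers in 1 of 4 in SAT of obese mice. Exocrine pancreas markers rose in 1 of 3 in each tissue (Cela1), while Pnlip (-1.78 ± 0.93) and Cpa1 (-0.55 ± 0.77) were not called in VAT. Intestinal epithelium markers fell in 2 of 5 in VAT (Slc5a1 and Zg16), and the 1 keratinocyte entry was not called by diet. The part of gut and pancreas tissue in the VAT values was not tested. No skeletal muscle marker passed the filter.

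The partners of these enzymes were followed in a list of 73 genes, of which 41 (46 entries) were tested. In SAT of obese mice 16 entries rose and 0 fell, beside 6.20% and 4.85% of all entries tested, and in VAT 10 rose and 2 fell, beside 6.82% and 4.09% of all. Among shed membrane proteins 6 of 14 entries rose in SAT and 4 of 14 in VAT: Vcam1, an adhesion molecule, by log2 1.17 ± 0.15 (adjusted p = 2.74e-05) and 1.49 ± 0.15 (adjusted p = 1.14e-06), Icam1 by 0.83 ± 0.14 and 0.85 ± 0.14, and the tumor necrosis factor receptor Tnfrsf1b by 0.82 ± 0.16 and 0.98 ± 0.16. Hbegf, a growth factor released by shedding, rose in SAT (0.89 ± 0.26, adjusted p = 0.0316).

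Among matrix substrates 5 of 11 entries rose in SAT, among them Bgn (1.90 ± 0.49) and the collagen cross-linker Lox (1.62 ± 0.46), and 2 rose and 1 fell in VAT. Thbs1, an inhibitor of angiogenesis, was the one that fell in VAT (-1.06 ± 0.30, adjusted p = 0.0212). Among cofactors, Tspan15, a tetraspanin partner of Adam10, rose in SAT through NM_197996 (0.78 ± 0.17, adjusted p = 0.00341) and fell in VAT through XM_011243560 (-1.30 ± 0.40, adjusted p = 0.0358), 2 different transcripts. Tspan10 rose in VAT (4.93 ± 0.82, adjusted p = 0.000459), while in SAT its value was 1.38 ± 1.40 (adjusted p = 0.591). Its difference between tissues could not be estimated with any precision (4.00 ± 33.1, adjusted p = 0.975). Among other proteases Htra1 and Htra3 rose in SAT and the cathepsin Ctsk rose in VAT (2.08 ± 0.36, adjusted p = 0.000424), and among other inhibitors Cst3, a cysteine protease inhibitor, rose in both tissues (0.41 ± 0.11 and 0.70 ± 0.11).

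Between depots, 16 entries of the list were higher and 5 lower in VAT of lean mice, beside 8.0% and 6.84% of all entries tested. In obese mice 15 were higher and 9 lower, beside 15.9% and 13.5% of all. Fap, a protease of activated fibroblasts, was lower in VAT (-1.44 ± 0.13 in lean and -1.62 ± 0.13 in obese mice), and Pappa, a metzincin that cleaves binding proteins of insulin-like growth factors, was higher (3.57 ± 0.32 and 3.15 ± 0.27). The diet response differed between tissues for Ctsk (1.63 ± 0.32, larger in VAT), Thbs1 (-1.66 ± 0.30) and Vwf (-1.32 ± 0.31).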

How the data were processed

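Poly(A) RNA was measured in SAT and VAT of 4 lean and 4 obese mice with a directional library kit, 16 libraries in 4 groups. As far as the methods and labels say, the authors trimmed the reads with Trim Galore, aligned them to GRCm39 with HISAT2 2.2.0 and counted them with HTSeq 0.13.5. How reads shared by transcripts were treated, and the strand setting, are not given in the sources used here. The deposited counts per RefSeq transcript are raw, and the deposited CPM columns are the counts scaled by the column total, which was checked to within 4.9e-10. Symbols came from a RefSeq gene table (GRCm38.p6, names only) by accession, for 82.0% of entries. Positions and lengths came from GENCODE M39.

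An entry was tested, if 3 or more of the 16 libraries had it above 1 CPM, with edgeR 4.0.16 (legacy=TRUE, TMM) in R 4.3.3. Diet contrasts used 4 group means. Tissue contrasts and the difference of the responses used the mouse as a block, and no mouse had both diets. By their labels, SAT and VAT libraries of 1 number were taken to come from 1 mouse. Their deviations from group means correlated at -0.00901 to 0.173 (median 0.0759, 8 pairs), against -0.154 to 0.121 (median -0.0392, 24 pairs) for different mice. These ranges overlap. Centring on group means also makes values for different mice negative when those for the same mouse are positive, so the correlations do not settle the pairing. Total counts set the precision. They ranged from 4604460 to 11897722 (SAT, lean), 10828758 to 16614407 (SAT, obese), 1256082 to 15802634 (VAT, lean) and 2247737 to 11615347 (VAT, obese). Scripts were tested on simulated data. Alternatives were RLE size factors, no filter on low counts, legacy=FALSE, DESeq2 1.42.0, limma 3.58.1 voom with mice as random effects, counts summed per symbol, the libraries of 1 tissue only, a replicate block, no replicate block for tissue contrasts, and each mouse left out.

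The members and lists were chosen with earlier results of these data known. Named members are a list of 18 genes, all members called by diet or for the difference between tissues, and the 8 largest calls per direction between tissues. Mmp8, Mmp10, Mmp11, Mmp15, Mmp25, Mmp28, Adam1a, Adam4, Adam23, Adamts19 and Adamtsl5 are also given, some outside this rule, after their values were seen. ADAMs were sorted by the zinc-binding motif in the translated canonical transcript.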

Additional observations from a re-analysis of the deposited data

Results flagged for a closer look

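Among 112 sets of 4 libraries (28 entries in 4 groups), 4 held a library that stood apart from the rest, and about 1 in 20 is expected by chance. In SAT of obese mice, replicate 4 was at 8.79 CPM for Mmp19 NM_021412 (114 counts), above 7.15, 6.99 and 7.25 CPM. In VAT of lean mice, replicate 4 was at 6.74 CPM for the same entry (61 counts), above 3.84 to 4.25 CPM. Replicate 1 of lean VAT, the shallowest library, was at 5.76 CPM for Mmp9 on 9 counts, above 1.66 to 2.36 CPM. Replicate 4 of lean SAT was at 8.72 CPM for Mmp27 (41 counts), above 3.94 to 4.29 CPM.

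The diet response differed between VAT and SAT for 3 members, by a test of the difference itself with edgeR and the mouse as a block. The difference was 1.16 for Mmp11, -0.84 for Adam12 and 2.85 for Mmp13 on the log2 scale.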

How the results depend on the processing

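Of the 39 called values (28 entries in 5 comparisons), 16 were called in every fit that could be made, 23 missed the threshold in at least 1, and 0 changed direction. In the fits that left out a mouse, 17 were called in each that could be made. For Mmp12 (VAT by diet, and between tissues in obese mice) these were 5 fits. Its entry fell below the filter without obese replicate 1, 2 or 4. In SAT the 5 higher calls became 2 to 4 and the 1 lower call 1 to 2 with a mouse left out (2 higher without lean replicate 2 or 3 or obese replicate 2, 3 without lean replicate 1 or obese replicate 1, 3 or 4), and the lower calls became 2 with legacy=FALSE, with DESeq2 and with counts summed per symbol, which add Adam1a. The higher calls in SAT rose to 6 with RLE size factors, no filter, legacy=FALSE and limma voom and to 7 with DESeq2 and with SAT libraries alone, the added entries being Adam23, Mmp19 NM_021412 or both. In VAT the 7 higher calls were 7 with RLE and DESeq2, 6 with no filter, legacy=FALSE, summed counts and limma voom, and 5 with VAT libraries alone. With a mouse left out they became 1 to 6, with 1 without obese replicate 4, 3 without obese replicate 2 and 4 without lean replicate 3 or 4. Between tissues, with a mouse left out, in lean mice the 3 higher calls became 0 to 3 and the 6 lower calls 3 to 6. In obese mice the 5 higher calls became 2 to 5. The 3 calls for the difference of the diet response became 0 to 4. With no replicate block (4 group means alone) the difference of the diet response gave 0 calls in place of 3, and lean mice gave 1 higher and 3 lower calls in VAT against SAT. With a replicate block by number, which joins different animals in the diet contrasts, SAT gave 6 higher and 1 lower and VAT 8 higher and 1 lower, Mmp19 NM_021412 (SAT, adjusted p = 0.0242) and Mmp14 (VAT, adjusted p = 0.0483) being added. The cause of these changes was not tested. DESeq2 gave Mmp13 no adjusted p for the difference. Depth limits members with few counts: in VAT of lean replicate 1, a count of 0 allows up to 2.39 CPM before TMM scaling, for counting error alone.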
